A study of Prunus persica with 20 samples.

Results

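The 100 genes selected on the lowest spread of transcript level between libraries of young peach and nectarine fruit were described as candidate reference genes, out of 26811 genes in the count table. CPM values (counts scaled to a library total of 1000000) were each count divided by the total of its library and multiplied by that number. A mean of at least 50 CPM was reached by 5139 genes, and the 100 of these with the lowest coefficient of variation (CV, the SD divided by the mean, over 19 libraries) were taken. These same libraries chose the genes, so their levels and their spread are given as a description, without a test.

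The study asked how fruit hairs (trichomes) develop, above all in the nectarine mutant MN, and all libraries came from fruit collected when it had just set. MN is the Maravilha nectarine mutant, a smooth-skinned fruit that arose from a peach and is stated Gg at the G locus, where the dominant allele gives fruit hair (5 libraries, replicates 1, 3, 4, 5 and 6). Sunraycer is a commercial nectarine stated gg (5 libraries, replicates 1, 2, 3, 4 and 10). TN11 is a peach stated GG (5 libraries, replicates 1 to 5) and TN7 a peach stated Gg (4 libraries, replicates 1, 2, 3 and 5). TN7 replicate 4 had no column in the count table and was not analysed here. Each combination of genotype and skin was a single accession, so genotype, skin and accession cannot be told apart, and no label says whether replicates were separate trees or fruits. Library totals ran from 14890206 (Sunraycer 3) to 24474843 counts (Sunraycer 2). None of the gene identifiers (0 of 26811) matched the RefSeq gene table at hand, so genes are given by identifier alone, without names or roles, and the tissue label could not be checked against marker genes.

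A reference gene is one whose transcript stays at the same level in every sample compared, so that the level of another gene can be expressed relative to it, for instance in quantitative PCR. In plants, genes for actin, tubulin, ubiquitin, elongation factor and cyclophilin are common choices. A level in CPM is a share of a library: when abundant transcripts take a larger share, the shares of all others fall. Methods such as TMM (trimmed mean of M values) and the median of ratios instead scale libraries so that the typical gene has no difference, and a gene that is steady on one scale need not be steady on the other.

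The 100 genes had no extreme levels, and the minimum of 50 CPM set their lower limit. Their means ran from 50.3 to 370.2 CPM, with a median of 103 beside 93.5 over all genes of at least 50 CPM. A higher mean than any of the 100 was found for 275 genes of the table. By level, 45 of the 100 lay between 50 and 100 CPM, 44 between 100 and 200 CPM and 11 between 200 and 400 CPM. Of the 5139 genes of at least 50 CPM, these bands held 2786, 1484 and 631. None of the 238 genes above 400 CPM was among the 100. The most abundant were Prupe.7G271300.v2.1 (370.2 CPM), Prupe.6G107800.v2.1 (365 CPM), Prupe.6G361900.v2.1 (324 CPM), Prupe.2G230400.v2.1 (296 CPM) and Prupe.8G178100.v2.1 (260.3 CPM). The smallest count of any of the 100 in any library was 773, and the median of the smallest counts was 1493.

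Their CVs lay between 3.65% and 7.06%, with a median of 6.26%, beside a median of 22.2% over all genes of at least 50 CPM. A CV under 10% was found for 445 genes in all. Counting error alone would give these 100 a median CV of 2.20%, and its median part of the variance was 12.2% (range 2.83% to 41.1%). No label mentions molecular identifiers, so this covers counting error of reads only. Every CV of the 100 was above its counting CV. The library with the highest level exceeded the one with the lowest by 1.15-fold to 1.41-fold, with a median of 1.27-fold.

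**Figure D1:**
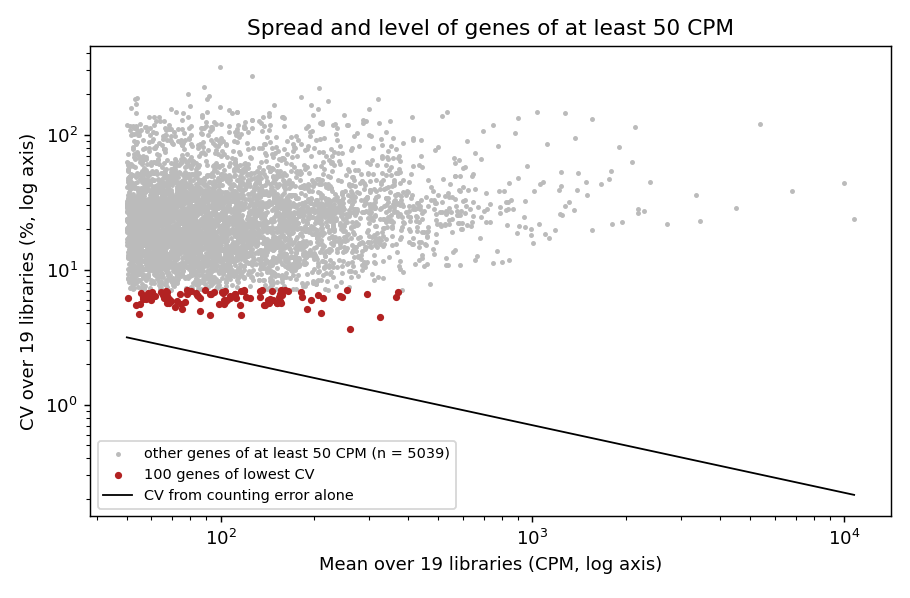
Mean level (CPM, log axis) and CV over 19 libraries (percent, log axis) of the 5139 genes of at least 50 CPM. Red points are the 100 genes of lowest CV, grey points the other 5039, and the line is the CV that counting error alone would give; the red points end at 7.06% and all lie above the line.

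Prupe.8G178100.v2.1 had the lowest CV, 3.65%. In replicate order, its levels were 252, 263, 279, 263 and 255 in MN, 282, 268, 265, 266 and 264 in Sunraycer, 255, 249, 254, 245 and 253 in TN11 and 259, 254, 259 and 260.4 in TN7, all in CPM. Sunraycer 1 was the highest library and MN 4 the next, and TN11 4 was the lowest. The Sunraycer mean, 269 ± 7.59 CPM (SD, n = 5), was 1.07 times the TN11 mean, 251 ± 4.18 CPM (SD, n = 5), and the Sunraycer range overlapped neither that of TN11 nor that of TN7. Since bulk RNA was measured, fewer cells of a type and less RNA per cell cannot be told apart in any of these levels.

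Prupe.6G361900.v2.1 came next, with a CV of 4.48%, and combined this with one of the highest means, 324 CPM. Its levels were 314, 307, 311, 310.3 and 314 in MN, 306, 332, 304, 308 and 328 in Sunraycer, 327, 335, 328, 342 and 339 in TN11 and 345, 335, 349 and 323 in TN7. Every MN library was below every TN11 and every TN7 library, with means of 311 ± 3.16 CPM in MN (SD, n = 5), 334 ± 6.39 CPM in TN11 (SD, n = 5) and 338 ± 11.6 CPM in TN7 (SD, n = 4). Sunraycer, at 315 ± 13.4 CPM (SD, n = 5), overlapped both MN and the peaches. The highest accession mean was 1.09 times the lowest, and differences between accessions held 65.2% of this gene's variance.

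The other 10 of the 12 lowest CVs ran from 4.64% (Prupe.7G066900.v2.1, mean 117 CPM) to 5.46% (Prupe.4G081400.v2.1, mean 139 CPM). Prupe.7G237000.v2.1 (CV 4.65%, mean 92.4 CPM) had levels of 98.1, 86.9, 95.2, 94.3 and 92.3 in MN, 82.6, 88.3, 91.5, 92.4 and 98.3 in Sunraycer, 91.8, 87.0, 95.2, 96.7 and 97.3 in TN11 and 93.5, 93.5, 92.7 and 87.1 in TN7. Its accession means differed by no more than 1.03-fold and all 4 ranges overlapped. Prupe.1G074800.v2.1, with a low mean of 54.6 CPM, had a CV of 4.71%, where counting error alone would give a CV of 3.02%. Its levels were 54.8, 49.1, 52.6, 58.7 and 59.2 in MN, 51.4, 53.2, 51.9, 55.3 and 52.4 in Sunraycer, 56.4, 55.3, 53.6, 55.1 and 54.8 in TN11 and 57.6, 56.6, 55.9 and 53.2 in TN7. MN spread most, 54.9 ± 4.24 CPM (SD, n = 5), and TN11 least, 55.0 ± 1.02 CPM (SD, n = 5).

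Among the same 10, Prupe.8G143700.v2.1 (mean 209.9 CPM) had a CV of 4.76% and Prupe.6G178400.v2.1 (mean 190.0 CPM) one of 5.15%. Their accession means differed by 1.06-fold and 1.05-fold at most. Prupe.7G271700.v2.1 and Prupe.3G042400.v2.1 were less abundant, with means of 85.7 and 75.4 CPM and CVs of 4.91% and 5.12%. Prupe.5G103000.v2.1 (mean 138 CPM, CV 5.44%) was lowest in MN, 131 ± 4.07 CPM (SD, n = 5), and highest in TN7, 145 ± 7.01 CPM (SD, n = 4), and those ranges did not overlap.

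**Figure D2:**
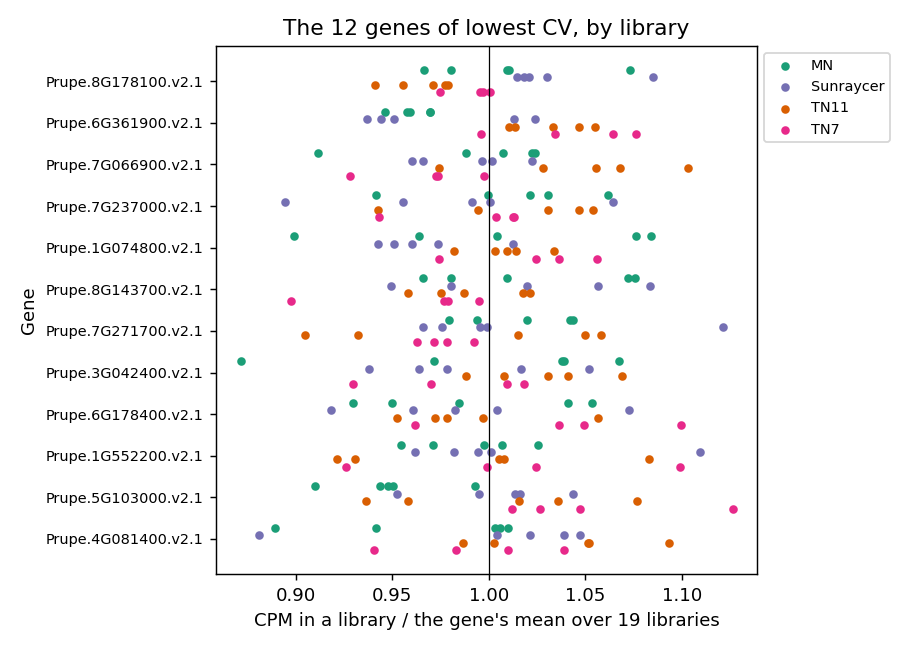
Level of the 12 genes of lowest CV in each library (CPM divided by the gene's mean over 19 libraries), with a point for each library coloured by accession. The ranges of some accessions are apart in Prupe.8G178100.v2.1, Prupe.6G361900.v2.1 and Prupe.5G103000.v2.1; in the other genes all overlap.

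At the edge of the choice, Prupe.1G345900.v2.1 and Prupe.1G040700.v2.1 were the last taken, with CVs of 7.06% and 7.06%. Prupe.6G209200.v2.1 and Prupe.6G282900.v2.1 were the first not taken, with 7.07% and 7.09%. By the digit before the G in the identifiers, which in this series of names gives the chromosome, 23 of the 100 were on chromosome 1, 21 on chromosome 6 and 14 on chromosome 8, while chromosome 4 had 4. Of all genes of at least 50 CPM, 23.5%, 14.5%, 9.40% and 9.83% had these digits.

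Accession means of the 100 genes were close to each other. The highest exceeded the lowest by a median of 1.09-fold and by no more than 1.16-fold. The highest mean was in MN for 27 genes, in Sunraycer for 29, in TN11 for 22 and in TN7 for 22. Differences between accessions still made up a median of 31.8% of the variance (quartiles 16.9% and 46.3%), beside 56.5% over all genes of at least 50 CPM. For 33 of the 100 genes the ranges of at least 1 pair of accessions did not overlap, beside 71.3% of the genes of at least 50 CPM. MN and TN11 were apart in 14 genes (31.8% of the genes of at least 50 CPM), MN and TN7 in 13 (24.6%), MN and Sunraycer in 9 (49.5%), Sunraycer and TN7 in 9 (17.8%), Sunraycer and TN11 in 5 (25.4%) and the peaches in 3 (8.02%). The choice itself lowers these counts, so nothing is read from them.

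The clearest split was in Prupe.7G271300.v2.1, the most abundant of the 100 (mean 370.2 CPM), where accession held 83.2% of the variance. Its levels in CPM were 367, 346, 356, 347 and 351 in MN, 327, 348, 343, 357 and 347 in Sunraycer, 403, 381, 400.4, 388 and 395 in TN11 and 392, 382, 384 and 419 in TN7. On column sums every nectarine library was below every peach library. The means were 354 ± 8.67 CPM in MN and 344 ± 11.3 CPM in Sunraycer (SD, n = 5 each), against 393 ± 8.89 CPM in TN11 (SD, n = 5) and 394 ± 16.7 CPM in TN7 (SD, n = 4). The split depended on the scaling: divided by TMM factors of 0.838 and 1.07, Sunraycer 1 lies above TN7 1.

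Another split set MN apart. Prupe.6G302600.v2.1, with 81.1% of its variance between accessions, had a mean of 97.3 ± 3.87 CPM in MN (SD, n = 5). The TN11 mean was 111 ± 2.70 CPM (SD, n = 5), that of Sunraycer 109 ± 0.983 CPM (SD, n = 5) and that of TN7 113 ± 4.70 CPM (SD, n = 4). Its levels by library were 92.1, 97.1, 99.5, 102 and 95.6 in MN, 109, 107, 108, 109 and 109 in Sunraycer, 110.2, 108, 115, 112 and 109 in TN11 and 117, 113, 115 and 106 in TN7. No MN library reached the level of any other library. Prupe.6G156800.v2.1 was highest in TN7, 122 ± 3.66 CPM (SD, n = 4), and its lowest accession mean was 106 ± 2.46 CPM in MN (SD, n = 5).

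At the other end, accession held 1.48% of the variance of Prupe.1G351300.v2.1, 3.86% for Prupe.1G552200.v2.1 and 4.08% for Prupe.1G566400.v2.1. The first had CPM values of 156, 151, 149, 142 and 143 in MN, 143, 143, 138, 144 and 163 in Sunraycer, 165, 137, 148, 136 and 146 in TN11 and 148, 138, 147 and 162 in TN7. Prupe.1G552200.v2.1 had CPM values of 69.6, 72.1, 73.5, 71.5 and 68.4 in MN, 71.2, 70.4, 68.9, 71.7 and 79.5 in Sunraycer, 77.6, 66.7, 72.2, 66.0 and 72.1 in TN11 and 71.6, 66.4, 73.4 and 78.7 in TN7. Both were high in the same libraries, Sunraycer 10, TN11 1 and TN7 5, and low in TN11 2, TN11 4 and TN7 2. Their ratio was the steadiest of all 4950 pairs among the 100 genes: it ran from 0.445 to 0.503 over the libraries (SD of the log2 ratio 0.0401, beside a median of 0.123 over all pairs).

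Most pairs did not move together. Across the 19 libraries, which share accession and scaling, log2 CPM of 2 of the genes correlated with a median r of 0.0468, and the values spread from -0.890 to 0.880. In 372 of the 4950 pairs r was above 0.5 and in 209 it was below -0.5. On column sums, the scale that chose the genes, averages over several of them had lower CVs than any single one. The geometric mean of the 3 genes of lowest CV had a CV of 2.00%, that of 10 a CV of 1.54% and that of all 100 a CV of 1.40%. With the median of ratios the same means had CVs of 8.81%, 7.95% and 8.65%. These were above that of the steadiest single gene of the 100 there, Prupe.1G557400.v2.1 (5.38%). The sum of the 100 genes was 12122 ± 195 CPM in MN, 12125 ± 239 in Sunraycer, 12208 ± 153 in TN11 (SD, n = 5 each) and 12129 ± 80.7 in TN7 (SD, n = 4).

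Which genes were steadiest depended on how libraries were scaled. With TMM factors, 21 of the 100 would again be among the 100 genes of lowest CV, and with the median of ratios 10 would. The median CV of the 100 genes was 6.26% with column sums, 8.80% with TMM and 10.4% with the median of ratios, where 43 of them stayed under 10%. Their median place in the order of CV fell to 290.5 of 5138 genes with TMM and to 476 of 5134 with the median of ratios. Ratios between genes hardly depend on the scaling of libraries. Ranked by the mean SD of their log2 ratio (CPM + 1) to every other gene of at least 50 CPM, 24 of the 100 were among the first 100, and their median place was 243.

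The difference between the scales was largest in Sunraycer. On column sums the median log2 difference of the 100 genes from their own means lay between -0.0489 and 0.0266 in every library. With the median of ratios it was 0.37 in Sunraycer 1, 0.15 in Sunraycer 2, 0.00316 in Sunraycer 3, 0.11 in Sunraycer 4 and 0.0985 in Sunraycer 10. In the other accessions it ran from -0.11 to 0.00852. Relative to the typical gene, the 100 genes were above their mean in the Sunraycer libraries, most of all in Sunraycer 1 and barely in Sunraycer 3. The rule took genes that are flat on column sums, so this largely restates the difference between the scales.

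The TMM factor, by which a library's total is multiplied, was 0.925 ± 0.0558 in Sunraycer (SD, n = 5), with 0.838 in Sunraycer 1, and its means were 1.04 in MN, 1.01 in TN11 and 1.04 in TN7. The 100 most abundant genes of the table held 15.8 ± 0.506% of the counts in Sunraycer and 14.7 ± 0.526% in MN, 13.7 ± 0.543% in TN11 (SD, n = 5 each) and 13.7 ± 0.299% in TN7 (SD, n = 4). In replicate order, the Sunraycer libraries had shares of 15.5%, 16.6%, 15.8%, 15.3% and 15.7%. Their TMM factors were 0.838, 0.928, 0.986, 0.956 and 0.915. The part of the larger share in Sunraycer in the difference between scales was not tested. Without the Sunraycer libraries, the lists chosen with column sums and with the median of ratios had 67 of 100 genes in common. The overlap was 31 without Sunraycer 1 alone and 4 to 10 without any other accession.

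**Figure D3:**
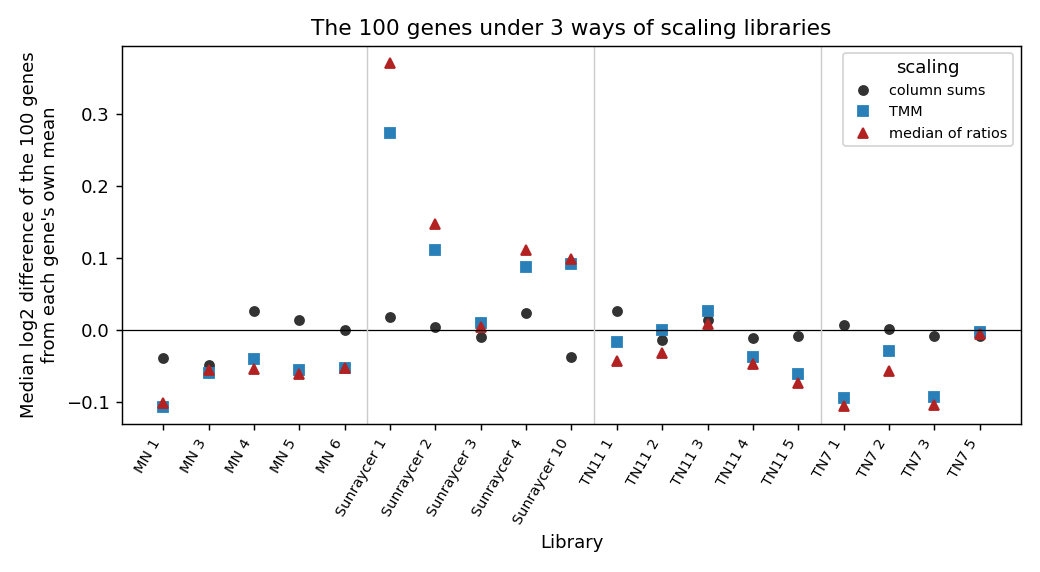
Median over the 100 genes of the log2 difference from each gene's own mean, in each library, with libraries scaled by column sums (circles), TMM (squares) or the median of ratios (triangles). The circles stay within -0.0489 and 0.0266, while the triangle of Sunraycer 1 reaches 0.37.

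The 10 genes that stayed among the first 100 with column sums, TMM and the median of ratios were also among the first 100 by ratios. They were singled out after their values were seen. Prupe.3G043000.v2.1 had CVs of 5.60%, 4.72% and 5.42% on the 3 scales and stood at place 2 by ratios. Its CPM values were 55.1, 52.1, 53.2, 55.5 and 55.7 in MN, 47.1, 53.2, 55.9, 55.0 and 54.0 in Sunraycer, 55.9, 54.4, 54.9, 55.5 and 55.3 in TN11 and 59.4, 61.4, 58.8 and 59.4 in TN7. On column sums Sunraycer 1 was the lowest library, and all TN7 libraries were above all libraries of MN, Sunraycer and TN11. Neither order holds with TMM: divided by factors of 0.838 and 1.07, Sunraycer 1 lies above TN7 1. Prupe.1G557400.v2.1 had CVs of 6.41%, 4.55% and 5.38% and CPM values of 68.9, 67.0, 63.5, 62.8 and 62.1 in MN, 51.8, 58.9, 59.2, 59.4 and 59.1 in Sunraycer, 61.5, 59.0, 63.5, 62.3 and 60.8 in TN11 and 63.5, 64.9, 62.9 and 55.0 in TN7. Here too Sunraycer 1 was the lowest on column sums, and MN the highest accession, 64.9 ± 2.93 CPM (SD, n = 5). Divided by TMM factors of 0.838 and 0.996, Sunraycer 1 lies above TN7 5.

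Of the others, Prupe.7G237000.v2.1, Prupe.1G074800.v2.1 and Prupe.8G169900.v2.1 had CVs of 4.65%, 4.71% and 5.59% with column sums and of 6.80%, 6.90% and 6.89% with the median of ratios. Prupe.7G271300.v2.1, the abundant gene that split nectarines from peaches on column sums, had 6.89% and 6.90%. Prupe.6G249800.v2.1, Prupe.1G388200.v2.1, Prupe.3G036100.v2.1 and Prupe.8G104400.v2.1 had CVs between 6.86% and 7.04% with column sums, which is close to the limit, and between 6.01% and 6.28% with the median of ratios. By contrast, Prupe.8G178100.v2.1, the steadiest on column sums, had a CV of 9.16% with TMM and 11.3% with the median of ratios, and stood at place 335 and 640.

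Values in libraries that took no part in a choice were obtained by leaving out an accession, choosing 100 genes from the rest by the same rule, and describing them in the accession left out. Chosen without MN, 67 genes were shared with the 100, and in MN the genes so chosen differed from the other libraries by a median of 1.07-fold, with a largest log2 difference of 0.34. Chosen without TN11 (73 shared), the median was 1.05-fold and the largest log2 difference 0.31. Chosen without TN7 (79 shared), these were 1.03-fold and 0.27. None of the 400 differences reached 2-fold, while among the genes of at least 50 CPM in the same libraries 11.1% did in MN, 3.93% in TN11 and 3.13% in TN7. Ranges that did not overlap the other libraries were found for 11% of the genes chosen without MN (9.79% of the genes of at least 50 CPM), 12% without Sunraycer (6.17%), 2% without TN11 (1.43%) and 2% without TN7 (0.586%). The rule narrows the ranges of the chosen genes in the libraries that chose them, which makes ranges part more easily. These shares are therefore not alike, and nothing is read from them.

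Sunraycer was the accession in which such genes differed most. Of the 100 genes chosen without it, 48 were shared. The levels of all genes so chosen differed in Sunraycer from the other libraries by a median of 1.09-fold and by up to 1.42-fold, and their median CV within Sunraycer was 8.28%, beside 5.29% over the libraries that chose them. All genes of at least 50 CPM had a median CV of 20.9% within Sunraycer, and 10.7% of them differed by 2-fold or more. By median they too differed most in Sunraycer, 1.32-fold, beside 1.24-fold in MN, 1.11-fold in TN11 and 1.09-fold in TN7. In MN, TN11 and TN7 the genes chosen without that accession had median CVs of 5.33%, 5.73% and 5.85% within it. All genes of at least 50 CPM had 10.8%, 11.7% and 14.7% there. With TMM for choosing and describing, the median differences of the chosen genes were 1.06-fold in MN, 1.08-fold in Sunraycer, 1.04-fold in TN11 and 1.05-fold in TN7.

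**Figure D4:**
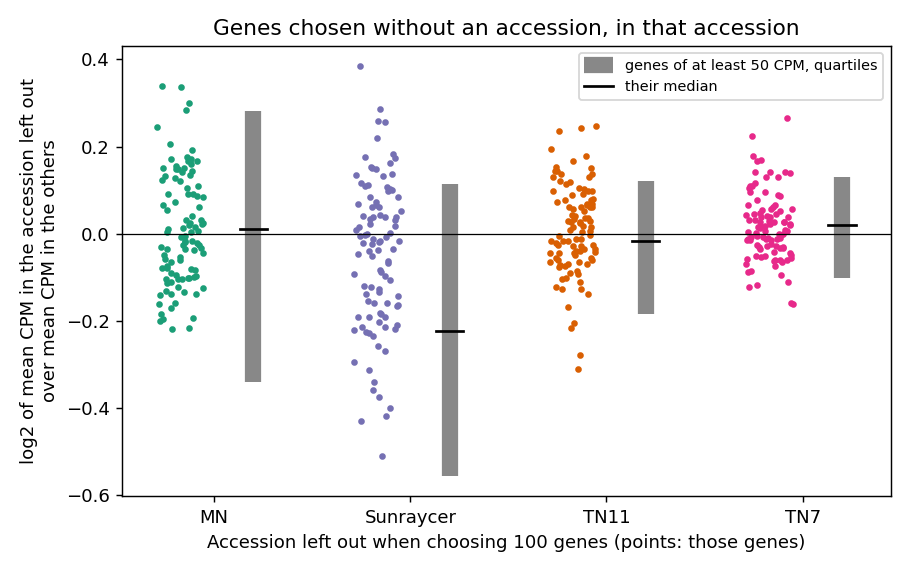
For each accession, the log2 ratio of the mean CPM in it to the mean CPM in the other libraries, for 100 genes chosen without it (points) and for the genes of at least 50 CPM (grey bars from the lower to the upper quartile, with the median as a line). The points of Sunraycer spread most and reach -0.510.

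In the comparisons between accessions, no gene of the 100 was called in any of the 6 pairs at an edgeR adjusted p below 0.05 and a difference of at least 2-fold, and 0 were called by DESeq2. Of all tested genes, 10.3% were called for MN minus TN7, 18.3% for Sunraycer minus TN11, 15% for MN minus TN11, 16.2% for Sunraycer minus TN7, 25.2% for MN minus Sunraycer and 4.34% for TN7 minus TN11, and 36.5% in at least 1 pair. Among the genes of at least 50 CPM, from which the 100 were taken, these shares were lower, at 4.85%, 10.5%, 6.52%, 8.39%, 17.7% and 1.03% in the same order, and 23.1% in at least 1 pair. By adjusted p alone, 67 of the 100 passed in at least 1 pair (79.7% of tested genes). They numbered 53 for MN minus Sunraycer (60.6%), 33 for Sunraycer minus TN7 (36.0%), 21 for Sunraycer minus TN11 (43.0%), 2 for MN minus TN11 (33.4%), 1 for MN minus TN7 (20.5%) and 0 for TN7 minus TN11 (7.87%). The rule used the same libraries, so these counts are a description and nothing is read from them.

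The fitted log2 differences of the 100 genes were small and, with TMM, leaned one way wherever Sunraycer took part. For MN minus Sunraycer their median was -0.18 (range -0.33 to 0.02), beside 0.04 over all tested genes. Sunraycer minus TN7 had a median of 0.18 and Sunraycer minus TN11 of 0.14, beside -0.06 and -0.05 over all tested genes. For MN minus TN7 the median was 0.01 (range -0.21 to 0.16). Without Sunraycer 1 the median for MN minus Sunraycer was -0.17. The rule took genes that are flat on column sums, so small differences were built in. The lean largely restates the TMM factors of the libraries, and nothing is read from it.

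Since the 100 genes were chosen to be flat on column sums, scaling the libraries by them comes close to scaling by column sums. Scaled by their geometric mean, the median of all tested genes moved to 0.21 for MN minus Sunraycer, to -0.23 for Sunraycer minus TN7 and to -0.18 for Sunraycer minus TN11, and the 100 genes were centred near 0. The number of genes called for MN minus Sunraycer was 4884 with TMM and 5141 with the 100 genes, but the share of higher genes rose from 33.3% to 45.8%. For Sunraycer minus TN7 the share higher went from 60.1% to 49.0% and for Sunraycer minus TN11 from 53.7% to 44.6%. Scaling by column sums gave 45.5%, 49.0% and 44.5% for these 3 pairs, close to the shares with the 100 genes, so the shift is not particular to them. In MN minus TN7, which leaves Sunraycer out, the share was 26.5% with TMM and 25.6% with the 100 genes. With this scaling 17 of the 100 passed by adjusted p alone in at least 1 pair, beside 82.7% of tested genes. They numbered 7 for MN minus Sunraycer (64.1%), 7 for Sunraycer minus TN7 (42.3%), 4 for Sunraycer minus TN11 (45.0%), 2 for MN minus TN11 (33.1%), 2 for MN minus TN7 (19.8%) and 0 for TN7 minus TN11 (8.09%). For the interaction, which asks whether the step from TN7 to MN equals that from TN11 to Sunraycer, 1 of the 100 passed (37.2% of tested genes), beside 10 with TMM (37.3%). With a difference of at least 2-fold 0 of the 100 were called for the interaction, beside 21.7% of tested genes.

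Other changes to the rule moved the list less than the scaling did. An equal weight for each accession kept 96 of the 100, the SD of log2(CPM + 1) kept 95, and taking out the counting part of the variance kept 92. Thinning every library to the smallest total kept 89. A minimum of 20 CPM kept 77 and one of 100 CPM kept 55. Ranking by spread within accessions kept 53, and the median absolute deviation over the median, which gives less weight to single libraries, kept 47. When each library was left out in turn, 80 (without Sunraycer 10) to 96 (without TN11 4) were kept, and 70 genes stayed in all 19 of these lists.

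**Figure D5:**
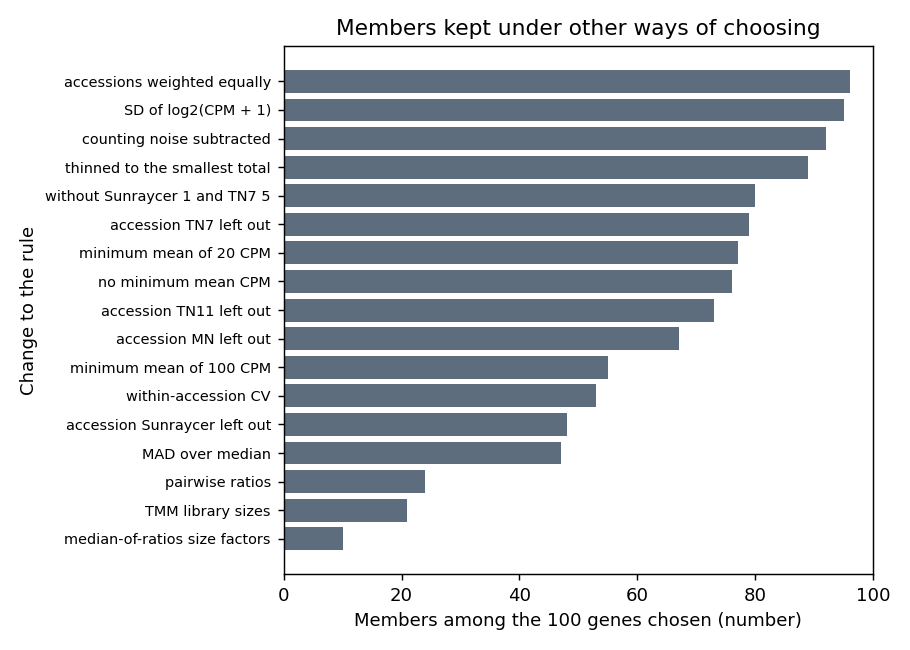
Number of the 100 genes that are among the 100 chosen after each change to the rule (bars, axis from 0 to 100). Median-of-ratios scaling keeps 10 and equal weights for the accessions keep 96.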

How the data were processed

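The table was deposited by the authors as whole-number read counts per gene (0 values were not whole), without normalization. They may be rounded RSEM estimates, in which case the counting CVs are approximate. Per the submitters' processing notes, the tools were DESeq2, RSEM 1.2.31, R 4.1.1 and Bowtie2 2.5.1, with no role given. Libraries were made with a stranded mRNA kit, per the labels' protocols. The strand setting, the genome build and the handling of reads shared by near-identical genes were not given in the sources used here, so levels of genes with close copies are uncertain. All 19 columns matched a sample title (0 were left out).

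CPM were computed from column sums. The genes, lists and tests were chosen with earlier results of these data known. All genes kept by filterByExpr (19360) were fitted with edgeR's quasi-likelihood test with TMM factors and a mean per accession, with Benjamini-Hochberg adjustment. Named genes were the 12 of lowest CV, the 5 of highest mean, the 3 with the largest and the 3 with the smallest share of variance between accessions, and 2 genes on each side of the limit. Lists by gene function, promoters and proteins could not be used, because no identifier matched an annotation. The choice of genes and the edgeR test were also run on simulated data, with outcomes not given here. Apart from changes set in MN, all simulated libraries had the same expected share per gene. They could therefore not test the dependence on scaling.

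Python 3.11.15, edgeR 4.0.16 and DESeq2 1.42.0 were run, the latter under R 4.3.3 with limma 3.58.1. Within accessions no libraries were duplicates (smallest chi-square per degree of freedom 7.13). Same-numbered libraries of MN and TN7 deviated together (3 pairs, correlations 0.415 to 0.598 across genes), though no label pairs them. No other pair of accessions had all correlations above 0.1, and theirs ran from -0.705 to 0.641. Values for differently numbered libraries are not given here, so a pairing is not established.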

Additional observations from a re-analysis of the deposited data

Results flagged for a closer look

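Of 104 groups of 4 or 5 libraries examined for a sample far from the others, 7 had one; chance gives about 1 in 20. Sunraycer 10 held 4 of them. It had 96.1 CPM of Prupe.7G271700.v2.1 (82.8 to 85.6 in the other Sunraycer libraries), 79.5 CPM of Prupe.1G552200.v2.1 (68.9 to 71.7) and 163 CPM of Prupe.1G351300.v2.1 (138 to 144), each above the rest. It had 122 CPM of Prupe.4G081400.v2.1, below the rest (139 to 145). The levels of Prupe.1G552200.v2.1 and Prupe.1G351300.v2.1 went together over the libraries (r = 0.880), so their flags are not separate observations. Sunraycer 1 had 282 CPM of Prupe.8G178100.v2.1, above the other Sunraycer libraries (264 to 268). TN7 5 had 87.1 CPM of Prupe.7G237000.v2.1, below the other TN7 libraries (92.7 to 93.5). The TMM factor of MN 3, 1.01, was below those of the other MN libraries (1.04 to 1.05).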

How the results depend on the processing

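Members kept among the 100 numbered 21 with TMM, 10 with the median of ratios, 24 by ratios between genes, 47 by median absolute deviation, 53 by spread within accessions, 55 with a minimum of 100 CPM and 48 without Sunraycer, and 80 to 96 without single libraries. Their median CV was 8.80% with TMM, 10.4% with the median of ratios, 5.47% within accessions and 6.11% to 6.38% without single libraries. The 100 genes had 0 calls in any pair with DESeq2, median-of-ratios or column-sum scaling, no filter, the replicate block and without each library. The rule took genes flat over these same libraries, so 0 calls at 2-fold were built in and nothing is read from them. With no fold minimum 67 passed, and 17 when scaled by the 100 genes. All tested genes called in at least 1 pair numbered 7066, 15430 with no fold minimum, 16009 when also scaled by the 100 genes, 7274 with the replicate block, and 6211 to 7722 without single libraries. For the interaction 4199 genes were called, 7219 with no fold minimum, 7211 when also scaled by the 100 genes, 2561 without Sunraycer 1 and TN7 5, and 2971 to 4919 without single libraries; of the 100 genes 0 were called, 10 with no fold minimum and 1 when also scaled by them. The replicate block adds the replicate number to the fit as a factor, though no label pairs same-numbered libraries. MN 6 and Sunraycer 10 are alone in their numbers, so with the block they add nothing to the comparisons. With the 2-fold minimum the block left the 100 genes at 0 calls, and it was not run without that minimum. For MN minus TN7 the block gave 1520 genes in place of 1999. The cause of these changes was not tested. Scaling by column sums, scaling by the 100 genes without a fold minimum, leaving out both named libraries together, the lists without an accession under TMM and the overlaps of lists by scaling were chosen after seeing the data. The alternative window for promoter motifs was not run.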

Other observations

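The 100 genes of lowest CV under the median of ratios were mostly other genes, with 90 that are not among the 100 chosen on column sums. Their median CV was 6.32% with the median of ratios and 9.17% with column sums. Prupe.3G271000.v2.1 led them, with a mean of 198 CPM and CVs of 3.41% and 7.97% on these scales, followed by Prupe.1G344300.v2.1, with a mean of 91.0 CPM and CVs of 4.35% and 9.66%. On column sums the median log2 difference of these genes from their own means was -0.29 in Sunraycer 1, and its mean was -0.15 ± 0.0940 in Sunraycer (SD, n = 5) and 0.0627 ± 0.0224 in MN (SD, n = 5). The geometric mean of the 100 genes chosen on column sums over that of these genes was 1.17 ± 0.0853 in Sunraycer (SD, n = 5), 1.01 ± 0.0223 in MN (SD, n = 5), 1.02 ± 0.0252 in TN11 (SD, n = 5) and 1.01 ± 0.0499 in TN7 (SD, n = 4), and reached 1.31 in Sunraycer 1. Both lists were chosen by scaling on these libraries, so the ratio largely restates the difference between the scales: the median-of-ratios factor over the column sum was 0.783 in Sunraycer 1.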
